A study of Mus musculus with 4 samples.

Results

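The core circadian clock loop was examined in mouse liver through 10 genes named by symbol: Arntl (also called Bmal1), Clock, Npas2, Nr1d1, Nr1d2, Per1, Per2, Per3, Cry1 and Cry2. All 10 were found among the 35275 genes of the count table, each as a protein-coding gene. The rule goes by gene name and uses no measured value, but the members were chosen with earlier results of these data known. Liver RNA came from 4 groups of female mice aged 26 weeks. VS mice were given vehicle (PBS) and stayed sedentary, and VI mice were given vehicle and underwent high-intensity interval training (IT) on a treadmill for 16 weeks. FS mice were injected with AApoAII amyloid fibrils to start amyloidosis and stayed sedentary, and FI mice received the fibrils and underwent IT. Every mouse, controls included, carried the amyloidogenic Apoa2c allele, which the study places on a SAMR1 background (R1.P1-Apoa2c) and the sample labels on AKR/J. Amyloid in this model is seeded by the injected fibrils, so FS and FI describe induced and not spontaneous disease.

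Tissue of 4 mice was combined in each group before RNA extraction, so that 16 mice gave 4 libraries, and no value has a replicate error. Organs were collected within a day after training ended. The sources used here do not state the hour of collection, nor which of the study's separate rounds of mice entered each pool. The time of day of collection and the round of mice can therefore not be told apart from the groups. Total counts lay between 23442935 in VS and 28814802 in FS. A count of 0 allows up to 3 counts, which is between 0.102 and 0.127 CPM (counts scaled to a library of 1e+06). CPM values are scaled by the TMM method of edgeR, and their 95% intervals cover counting error only. The 6 hepatocyte markers summed to between 147000 and 172000 CPM, with none at 0 in any library. In bulk tissue, fewer cells of a type and less RNA per cell cannot be told apart. The VS library stood apart in 13 skeletal muscle markers, with a sum of 74.8 CPM there against 9.81 (VI), 1.12 (FS) and 0.951 (FI) elsewhere. Tnnc2 was at 0 in each library, Myh1, Myh2 and Pvalb were at 0 in FS and FI, and 9 markers, Acta1 and Ckm among them, were at 0 in FI. The comparison VI versus VS is called the vehicle contrast here, and FI versus FS the fibril contrast.

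The clock is a delayed feedback loop of transcription. ARNTL pairs with CLOCK, or with its relative NPAS2, binds E-box motifs, and drives the Per and Cry genes, whose proteins return to the nucleus and block the pair that made them. The same pair drives Nr1d1 and Nr1d2, which encode the receptors REV-ERBα and REV-ERBβ, and these repress Arntl through ROR elements (ROREs). In rodent liver Arntl and Nr1d1 peak at nearly opposite times of day, and feeding, body temperature and glucocorticoids can shift the hepatic clock.

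To show the regulatory letters behind these roles, 7 motifs were searched on both strands of RefSeq promoter windows (GRCm38.p6), which run from 250 bases before to 50 bases after a transcription start. A window was available for 9 of the 10 genes, with more than 1 for Arntl, Clock and Per1, and Per2 had none. The E-box CACGTG was present in 7.15% of all 32851 windows, its variant CACGTT (the E′-box) in 4.68%, the D-box TTATGTAA in 0.938% with its variant TTACGTAA in 0.119%, the cyclic AMP element TGACGTCA in 1.79%, and the RORE ANTAGGTCA, which contains the nuclear receptor motif AGGTCA, in 0.661%. AGGTCA on its own was present in 16.3% of windows. The stretches below read 5′ to 3′ along the strand of the gene, with the motif, or its reverse complement, in capitals. They are given for Arntl, Cry1 and Nr1d1, the members that differed most between libraries, and for Per1, Per3 and Cry2 as a contrast.
Arntl: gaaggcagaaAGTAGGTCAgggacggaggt
Nr1d1: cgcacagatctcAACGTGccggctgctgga
Cry1: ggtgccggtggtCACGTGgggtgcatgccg
Cry2: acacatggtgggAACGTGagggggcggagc
Per1: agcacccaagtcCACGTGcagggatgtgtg
Per3: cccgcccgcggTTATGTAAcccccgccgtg

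The Arntl stretch (chr7:113207529-113207558) held the RORE 28 bases after a RefSeq start, in an exon and untranslated. The Nr1d1 stretch (chr11:98775388-98775417) held an E′-box at position −28 from the start, upstream of the gene as listed with the counts. Cry1 had an E-box at −60 (chr10:85185097-85185126) and, at −79, an E′-box that lay outside the stretch shown. Cry2 had a single E′-box at −166 (chr2:92434218-92434247) and no E-box in its window. Per1 carried its E-box at −166 of the start shown (chr11:69098771-69098800), inside an intron of the listed gene. Per3 held 2 D-boxes, at −205 and at −158, and the stretch shown is the one nearer the start (chr4:151044805-151044834). Nr1d2 and 1 of the Clock windows held AGGTCA alone, and the Npas2 window held none of the 7 motifs. TTACGTAA and TGACGTCA were in no member's window. A match is a description of letters and not a binding site, and a window without one says nothing about the factor.

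Both IT contrasts showed Arntl and Cry1 higher and Nr1d1 lower in the trained livers. A model with terms for IT and amyloidosis called these 3 genes for IT, but it uses the same 4 libraries and adds no independent data. The calls were lost when IT was fitted without the amyloidosis term. Clock was higher with IT in vehicle livers and hardly differed in fibril livers, and Per2 was lower with IT in vehicle livers, with a fibril contrast whose interval includes 0. Nr1d2, Per1 and Cry2 kept within a 1.5-fold range across the 4 libraries. Npas2 was barely detected. Between fibril and vehicle livers, Cry1 was lower in both contrasts and was the only member past the threshold of the model. That call was lost without the IT term.

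**Figure D1:**
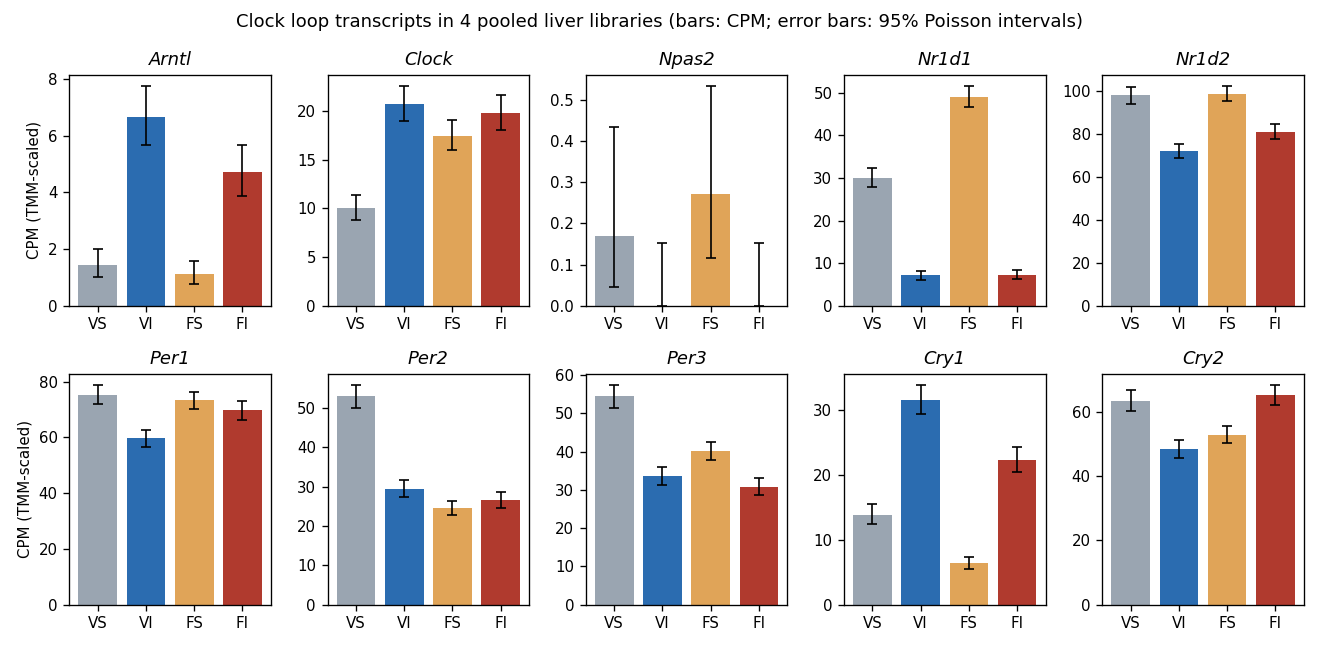
Level of each of the 10 clock loop genes in the 4 pooled libraries. The y axis is CPM after TMM scaling, starts at 0 and differs between panels. Bars are single libraries of 4 mice and error bars are 95% Poisson intervals for counting error. Arntl and Cry1 stand high in VI and FI, Nr1d1 stands high in VS and FS, and Per2 and Per3 stand highest in VS.

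Arntl (ENSMUSG00000055116, chromosome 7, 113207465 to 113314122, plus strand; mm10, as for all listed genes) encodes the obligate activator of the loop. The sedentary livers held 1.44 CPM (VS, 34 counts, interval 0.997 to 2.01) and 1.12 CPM (FS, 33 counts, 0.769 to 1.57). The trained livers held 6.65 CPM (VI, 162 counts, 5.67 to 7.76) and 4.71 CPM (FI, 114 counts, 3.89 to 5.66). Both trained livers lay above both sedentary livers with intervals that did not overlap, and the sedentary livers overlapped each other. Its log2 ratio was 2.19 (1.67 to 2.79) in the vehicle contrast, close to the 2.06 (1.51 to 2.68) of the fibril contrast. By absolute ratio Arntl ranked 56 and 54 among 12180 genes. Its counts were the lowest of the 9 members that passed the filter on low counts. Ratios from low counts scatter more, so these ranks are uncertain. Fibril livers were lower by log2 ratios of −0.36 (−1.1 to 0.37) when sedentary and −0.49 (−0.86 to −0.14) when trained.

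Clock (ENSMUSG00000029238, chromosome 5, 76212177 to 76304548, minus strand) encodes the partner of ARNTL. Sedentary levels were 9.99 CPM (VS) and 17.4 CPM (FS), and trained levels were 20.7 CPM (VI) and 19.8 CPM (FI), from between 236 and 515 counts. VS alone was low, and the intervals of VI (18.9 to 22.6) and FI (18.1 to 21.7) overlapped. The vehicle contrast gave a log2 ratio of 1.05 (0.82 to 1.28) and the fibril contrast 0.18 (0 to 0.37). VS was also the library with most skeletal muscle transcript, and the part of that in the Clock value was not tested. Clock passed 2-fold in VI versus VS by a margin smaller than its counting interval, and not on the log2(FPKM + 0.1) scale, where the ratio was 0.98.

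Npas2 (ENSMUSG00000026077, chromosome 1, 39193731 to 39363234, plus strand), whose product can stand in for CLOCK, had 4 counts (VS) and 8 counts (FS) in the sedentary livers and 0 in either trained liver. It was the only member under 1 CPM in every library and was left out of ratios and model. With the counts of 0 set to the floor of 3 counts per library and the counts of VS and FS taken as observed, Npas2 would be 1.38-fold lower in VI than in VS and 2.19-fold lower in FI than in FS. The counting interval of the log2 ratio reached up to 0.55 in the vehicle contrast, which includes 0, and up to −0.48 in the fibril contrast. Its level in VI and FI was not detectable at this depth. The libraries with Npas2 at 0 were those with the most Arntl counts.

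Nr1d1 (ENSMUSG00000020889, chromosome 11, 98767932 to 98775333, minus strand), the repressor of Arntl, stood at 30.0 CPM (VS, 709 counts, interval 27.9 to 32.3) and 49.1 CPM (FS, 1448 counts, 46.6 to 51.6) in the sedentary livers. The trained livers had 7.10 CPM (VI, 173 counts, 6.08 to 8.24) and 7.19 CPM (FI, 174 counts, 6.16 to 8.34). The trained livers were nearly equal and low, while the sedentary livers were high and differed from each other, FS above VS. Log2 ratios were −2.08 (−2.33 to −1.84) for the vehicle contrast and −2.77 (−3 to −2.54) for the fibril contrast. Nr1d1 was thus 4.23-fold lower with IT in vehicle livers and 6.82-fold lower in fibril livers, which ranked it 24 of 12180 genes in the latter contrast. FS versus VS gave 0.71 (0.58 to 0.84) and FI versus VI 0.02 (−0.29 to 0.33). The 3′ end of Nr1d1 overlaps Thra, the thyroid hormone receptor α gene on the opposite strand, by 1075 bases, and whether strand was used in counting is not stated. Thra lay at 7.37 CPM (VS) and 8.06 (FS) without training and at 7.59 (VI) and 5.91 (FI) with it. Its log2 ratios were 0.04 in the vehicle contrast and −0.45 in the fibril contrast. The part of Thra reads in the Nr1d1 values was not tested.

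Nr1d2 (ENSMUSG00000021775, chromosome 14, 18204054 to 18239127, minus strand), the paralogue of Nr1d1, reached 97.7 CPM (VS) and 98.6 CPM (FS) in the sedentary livers and 71.9 CPM (VI) and 80.9 CPM (FI) in the trained ones. The sedentary livers were again above the trained livers, with a smaller gap. Its vehicle contrast was −0.44 (−0.53 to −0.35) on the log2 scale, and its fibril contrast −0.28 (−0.37 to −0.2). Nr1d1 made up 23.5% of the counts of the pair in VS (exact binomial interval 22.0 to 25.1) and 33.2% in FS (31.8 to 34.6). In the trained livers its share was 8.99% in VI (7.75 to 10.4) and 8.16% in FI (7.03 to 9.41). Such shares within 1 library do not depend on how the libraries were scaled.

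Per1 (ENSMUSG00000020893, chromosome 11, 69095217 to 69109960, plus strand), a PERIOD gene that also responds to glucocorticoids and cyclic AMP, was at 75.4 CPM (VS) and 59.6 CPM (VI) in vehicle livers and at 73.3 CPM (FS) and 69.7 CPM (FI) in fibril livers. VI was the low library, and FS and FI lay close together. The vehicle contrast was −0.34 (−0.44 to −0.24) on the log2 scale, whereas the interval of the fibril contrast, −0.07 (−0.17 to 0.02), includes 0. In FI versus VI, Per1 was higher by 0.23 (0.12 to 0.33).

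Per2 (ENSMUSG00000055866, chromosome 1, 91415982 to 91459324, minus strand), a core repressor that also takes systemic cues, was measured at 53.0 CPM (VS) and 29.5 CPM (VI) without fibrils and at 24.6 CPM (FS) and 26.6 CPM (FI) with them. VS was high and the other libraries lay within a narrow band. Per2 had a log2 ratio of −0.84 (−0.98 to −0.71) in the vehicle contrast but 0.11 (−0.04 to 0.27) in the fibril contrast. FS versus VS gave −1.11 (−1.24 to −0.97), a 2.15-fold lower level in FS, and FI versus VI gave −0.15 (−0.31 to 0).

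Per3 (ENSMUSG00000028957, chromosome 4, 151003652 to 151044665, minus strand), the PERIOD gene that the loop can spare, amounted to 54.5 CPM (VS) and 33.5 CPM (VI) in vehicle livers, against 40.0 CPM (FS) and 30.8 CPM (FI) in fibril livers. It too was highest in VS, and within each pair the trained liver was lower. Log2 ratios came to −0.7 (−0.83 to −0.57) in the vehicle contrast and −0.38 (−0.51 to −0.25) in the fibril contrast. The whole of Per3 lies inside the span of Camta1 on the same strand, a gene that measured between 4.44 and 5.21 CPM. The high values of Per2 and Per3 in VS, like the low value of Clock there, coincided with the 74.8 CPM of skeletal muscle markers in that library, and the part of muscle RNA in them was not tested. Of the counts of the Per family, Per1 made up 41.2% (VS) and 48.6% (VI) in vehicle livers and 53.2% (FS) and 54.9% (FI) in fibril livers. The share of Per2 was 29.0% in VS (27.6 to 30.4) and 24.1% in VI (22.5 to 25.6), against 17.8% in FS (16.7 to 19.0) and 20.9% in FI (19.5 to 22.4). VS had the largest Per2 share and the smallest Per1 share. Both vehicle livers held a larger Per2 share and a smaller Per1 share than both fibril livers, with intervals that did not overlap.

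Cry1 (ENSMUSG00000020038, chromosome 10, 85131702 to 85185054, minus strand), the strong repressor of ARNTL and CLOCK and itself a gene with ROREs, had 13.9 CPM (VS, 327 counts) and 6.37 CPM (FS, 188 counts) in the sedentary livers. It had 31.5 CPM (VI, 768 counts) and 22.3 CPM (FI, 539 counts) in the trained livers. Both trained livers lay above both sedentary livers, and within each training state the fibril liver was the lower one. Cry1 was higher by a log2 ratio of 1.19 (1 to 1.38) in the vehicle contrast and 1.8 (1.56 to 2.05) in the fibril contrast, or 2.28-fold and 3.5-fold. FS versus VS gave −1.12 (−1.39 to −0.86) and FI versus VI −0.5 (−0.66 to −0.34).

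Cry2 (ENSMUSG00000068742, chromosome 2, 92403646 to 92434043, minus strand), the second CRYPTOCHROME gene, was found at 63.6 CPM (VS) and 48.5 CPM (VI) in vehicle livers and at 52.9 CPM (FS) and 65.3 CPM (FI) in fibril livers. VS and FI were high and VI and FS were low, so the direction of the IT contrast differed between vehicle and fibril livers. Its log2 ratio was −0.39 (−0.5 to −0.28) in the vehicle contrast against 0.3 (0.2 to 0.4) in the fibril contrast. An antisense transcript within Cry2, D930015M05Rik, had between 10 and 16 counts per library. Cry1 made up 17.9% of the counts of the Cry pair in VS (16.2 to 19.7) and 10.7% in FS (9.32 to 12.3), against 39.4% in VI (37.2 to 41.6) and 25.4% in FI (23.6 to 27.4). The intervals of the 4 shares did not overlap, and both trained livers held the larger Cry1 shares.

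**Figure D2:**
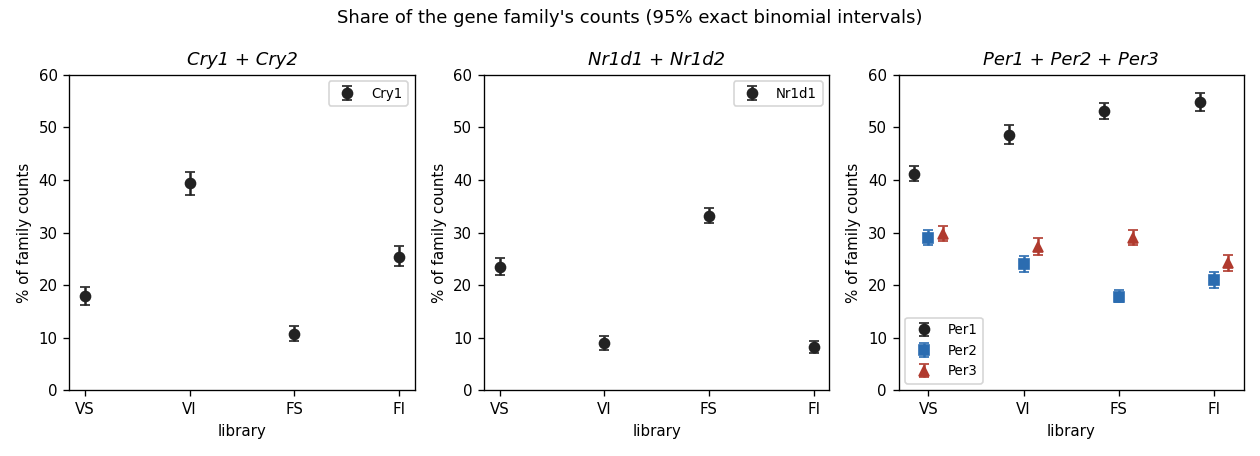
Share of each paralogue in the counts of its gene family, in percent (y axis, from 0), by library (x axis). Points are single pooled libraries and error bars are exact 95% binomial intervals. The Cry1 share was largest in VI at 39.4%, the Nr1d1 share was largest in FS at 33.2%, and the Per2 share was largest in VS at 29.0%.

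Levels of different genes can be set side by side only per length, as FPKM, which the authors computed from the same counts. On that scale Nr1d2 was the highest member in each library, between 15.3 FPKM in VI and 21.7 in FS, and Npas2 the lowest. In VS the order was Nr1d2 at 21.1 FPKM, Per1 at 16.3, Cry2 at 16.1, Nr1d1 at 11.1, Per2 at 9.15, Per3 at 9.14, Cry1 at 4.63, Clock at 1.35 and Arntl at 0.499. Per1 and Cry2, and likewise Per2 and Per3, did not differ beyond their counting intervals there. In FS Nr1d1 stood in the second place at 18.5 FPKM, and Cry1 at 2.17 overlapped Clock at 2.39.

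In VI Nr1d1 stood at 2.59 FPKM, where it overlapped both Clock at 2.75 and Arntl at 2.27, while Cry1 stood at 10.4. In FI Nr1d2 at 16.9, Cry2 at 16.0 and Per1 at 14.6 overlapped as neighbours, followed by Cry1 at 7.21, Per3 at 5.01, Per2 at 4.45, and Clock and Nr1d1 both at 2.58, with Arntl at 1.58. The ratio of Nr1d1 to Arntl in FPKM was 22.2 in VS and 46.8 in FS, against 1.14 in VI and 1.63 in FI. With Npas2 left aside, the highest member stood at 42.3 times the lowest in VS and 54.9 times in FS, and at 6.73 and 10.7 times in VI and FI. In each library this ratio sets Nr1d2 against Arntl, so it describes that pair of genes and not the spread of the set.

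The question behind both IT contrasts is how the liver transcriptome responds to IT without and with amyloidosis. With 1 library a group neither has a test, and genes were counted by size. For the vehicle contrast, 4 of the 9 members that passed the filter differed by more than 2-fold, against 3.44% of all 12180 genes. Arntl, Clock and Cry1 were the 3 higher members (1.54% of all genes), and Nr1d1 was the 1 lower member (1.9%). For the fibril contrast, 3 of 9 members differed by more than 2-fold, against 4.28% of all genes. Arntl and Cry1 were higher (1.75% of all genes) and Nr1d1 was lower (2.53%).

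The median log2 ratio of the members was −0.39 without fibrils and 0.11 with fibrils, beside 0.003 and 0.002 over all genes. The median absolute log2 ratio was 0.84 and 0.3, beside 0.2 and 0.21. The members thus lay in both directions, and the other 5 or 6 members lay within 2-fold. Both contrasts were built from separate libraries.

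**Figure D3:**
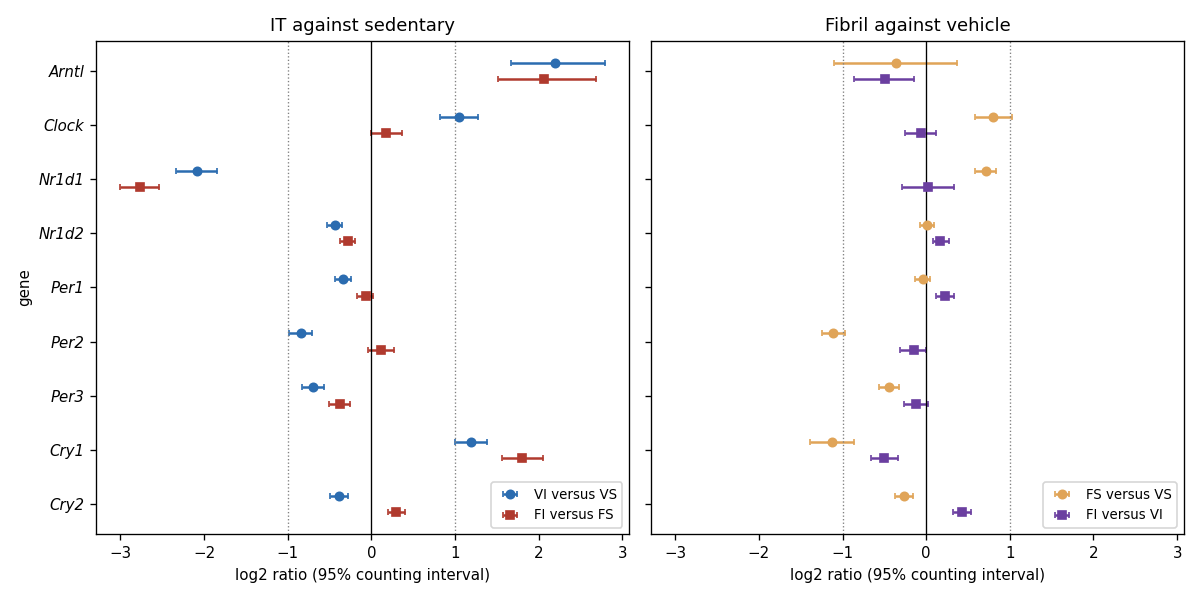
Log2 ratios of the 9 clock loop genes that passed the filter on low counts, for IT against sedentary (left) and fibril against vehicle (right). Points are ratios between single pooled libraries, bars are exact 95% intervals for counting error, and dotted lines mark 2-fold. Arntl, Cry1 and Nr1d1 lie beyond 2-fold in both IT contrasts, and no gene does in FI versus VI.

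A model with terms for IT and amyloidosis leaves 1 residual degree of freedom if both terms are taken as additive. A gene whose IT difference depends on fibrils therefore gets a larger error. The error comes from this departure from additivity, moderated across genes, and not from variation between mice or pools. The p-values thus do not show whether other mice would give the same. For Cry1 and Nr1d1 the IT ratio differed between fibril and vehicle livers beyond counting error, as given below. By edgeR's robust quasi-likelihood test with Benjamini-Hochberg adjustment over 11760 genes, Arntl rose with IT by 2.14 on the log2 scale (SE 0.25, adjusted p = 0.0075) and Cry1 by 1.48 (SE 0.18, adjusted p = 0.008). In the same edgeR test Nr1d1 fell by 2.43 with IT (SE 0.18, adjusted p = 0.0012). Hence 3 of 9 members were called, against 1.48% of all genes, with 2 higher (0.765% of all genes) and 1 lower (0.714%).

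The other 6 members did not pass. Clock had a log2 change of 0.6 (SE 0.21, adjusted p = 0.26 by edgeR), Per3 −0.54 (SE 0.13, adjusted p = 0.096 by edgeR) and Nr1d2 −0.36 (SE 0.11, adjusted p = 0.19 by edgeR). Per2, Per1 and Cry2 had log2 changes of −0.37, −0.2 and −0.04, with adjusted p of 0.5, 0.48 and 0.95 by edgeR. The 3 calls were lost when IT was fitted without the amyloidosis term, where adjusted p by edgeR was 0.22 for Arntl, 0.9 for Cry1 and 0.094 for Nr1d1 at log2 changes of 2.16, 1.42 and −2.47.

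The size of the IT ratio differed between fibril and vehicle livers for several members, by intervals that cover counting error only. Fibril minus vehicle, the difference was 0.96 (0.75 to 1.16) for Per2, 0.69 (0.54 to 0.84) for Cry2, 0.62 (0.32 to 0.92) for Cry1, 0.32 (0.14 to 0.5) for Per3, 0.27 (0.13 to 0.4) for Per1 and 0.16 (0.04 to 0.28) for Nr1d2. It was −0.87 (−1.15 to −0.58) for Clock and −0.69 (−1.02 to −0.36) for Nr1d1. For Arntl it was −0.13 (−0.9 to 0.64), an interval that includes 0 and is the widest of the 9. Without replicates of the pools these differences have no test.

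Amyloidosis was compared through FS versus VS and FI versus VI, which use the same 4 libraries as the IT contrasts and are not independent of them. In FS versus VS, 2 of 9 members differed by more than 2-fold, against 5.8% of all genes. None was higher (3.6% of all genes), and Cry1 and Per2 were lower (2.2%). In FI versus VI no member passed 2-fold, against 4.54% of all genes (2.59% higher and 1.95% lower). The median log2 ratio of the members was −0.26 in FS versus VS and −0.06 in FI versus VI, beside 0.019 and 0.01 over all genes, with median absolute ratios of 0.44 and 0.17 beside 0.25 and 0.22. Between the trained livers the members thus differed no more than other genes.

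In the additive model, Cry1 fell by 0.79 on the log2 scale with amyloidosis (SE 0.17, adjusted p = 0.04 by edgeR's quasi-likelihood test). It was the 1 call among 9 members, against 4.97% of all genes (2.81% higher and 2.17% lower), a single gene from which nothing is read about the set. Per2 had a change of −0.64 (SE 0.22, adjusted p = 0.16 by edgeR) and Nr1d1 of 0.41 (SE 0.18, adjusted p = 0.23 by edgeR). The Cry1 call was lost with a filter at 5 CPM, where adjusted p by edgeR was 0.061, and without the IT term, where it was 0.79. Along with fibrils, the 8 neutrophil markers summed to 2.58 CPM in VS and 3.16 in VI against 17.4 in FS and 13.1 in FI, and 5 Kupffer cell markers to 179 and 227 against 277 and 268. Between 1 and 4 neutrophil markers were at 0 in each library, Mpo in VS, VI and FI among them, and no Kupffer cell marker was. The part of these cells in the Cry1 value was not tested.

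The loop is tied to other transcription factors of the clock: the ROR receptors that activate through ROREs, the PAR-bZIP activators Dbp, Tef and Hlf with their repressor Nfil3 at D-boxes, and the E-box repressors Bhlhe40, Bhlhe41 and Ciart. Of these 10 genes 9 passed the filter, and Rorb had no count. In the vehicle contrast none was more than 2-fold higher (1.54% of all genes) and 2 were lower (1.9%). These were Dbp at −2.2 and Ciart at −1.38, while Nfil3 was the highest at 0.8. In the fibril contrast again none was higher (1.75% of all genes) and 2 were lower (2.53%), Dbp at −1.66 and Bhlhe41 at −1.57. The medians were −0.26 and 0.05 on the log2 scale, beside 0.003 and 0.002 over all genes.

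Dbp, a direct E-box target, measured 102 CPM (VS) and 80.9 CPM (FS) in sedentary livers and 22.2 CPM (VI) and 25.5 CPM (FI) in trained livers, high where Nr1d1 was high. Ciart measured 15.6 CPM (VS) and 5.99 CPM (VI) against 22.1 CPM (FS) and 25.2 CPM (FI), so its low value was in VI alone. Bhlhe41 rested on between 9 and 34 counts. Rora, which encodes an activator at ROREs, lay between 53.3 and 68.5 CPM.

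A list of 19 genes for kinases, ubiquitin ligases and cofactors that act on PER, CRY or ARNTL proteins, such as Csnk1d and Hdac3, all passed the filter. None of the 19 differed by more than 2-fold in any of the 4 contrasts. Over all genes the share was 3.44% in VI versus VS, 4.28% in FI versus FS, 5.8% in FS versus VS and 4.54% in FI versus VI. For a list of 19 genes, none is close to these shares, so nothing is read from it about the list. Their median log2 ratios with IT were 0.14 without fibrils and 0.06 with fibrils, beside 0.003 and 0.002 over all genes. The median absolute ratios were 0.27 and 0.16, beside 0.2 and 0.21. The highest and lowest ratios were 0.41 for the deacetylase gene Sirt1 and −0.59 for the ubiquitin ligase gene Fbxl21 in the vehicle contrast. In the fibril contrast they were 0.37 for Gsk3b and −0.41 for Fbxl21.

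**Figure D4:**
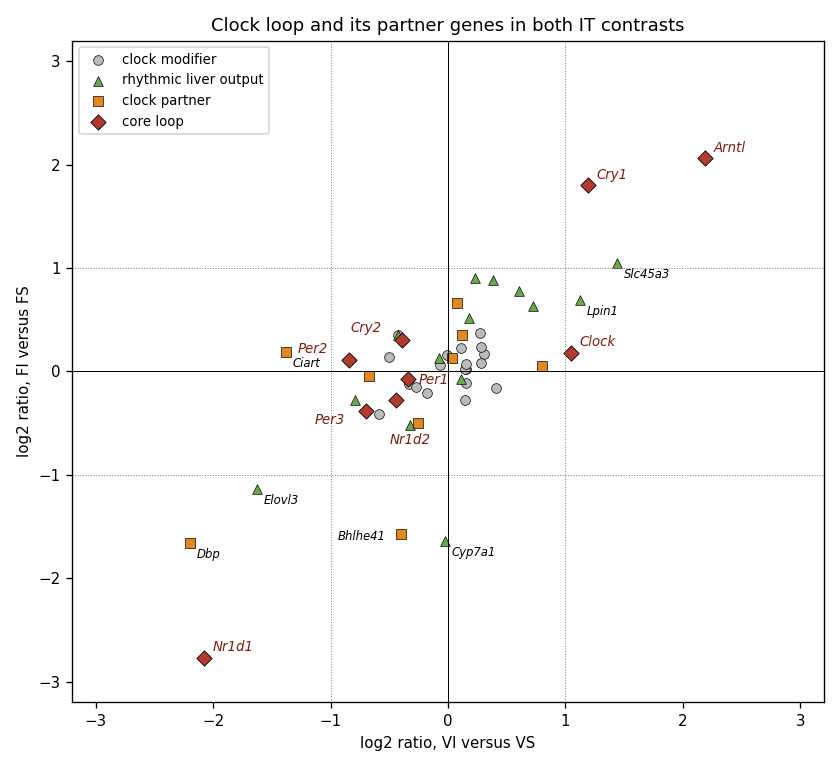
Log2 ratio with IT in vehicle livers (x axis, VI versus VS) and in fibril livers (y axis, FI versus FS) for the loop genes and 3 lists of related genes. Each point is a gene measured in 4 pooled libraries, and dotted lines mark 2-fold. Arntl and Cry1 lie beyond 2-fold at the upper right, and Nr1d1 and Dbp at the lower left. The modifier genes lie within 2-fold on both axes, as most genes of the libraries do.

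Likeness of pattern was measured as the Euclidean distance between log2 CPM profiles, each centred on its mean over the 4 libraries, among 830 genes with at least 5 CPM in a library and a range above 2-fold. It describes 4 points that share their library scaling and carries no test. The 5 genes nearest to Arntl were Etnppl at a distance of 0.59, Fbf1 at 0.66, Cry1 at 0.83, Sftpa1 at 0.91 and Ablim3 at 0.93. The mirror image of the Arntl profile was met most closely by Nr1d1 at 0.51, followed by Dbp at 0.57, Idi1 at 0.7, Mup9 at 0.75 and Pdgfa at 0.82. Mup9 belongs to a family of near-identical genes among which reads can be split, so its level is uncertain.

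Nearest to Nr1d1 itself were Idi1 at 0.67 and Sqle at 0.72, both genes of cholesterol synthesis, then Dbp at 0.9, Mup9 at 0.96 and Klhdc7a at 1.02. Sqle measured 9.02 CPM (VS) and 22.2 CPM (FS) in sedentary livers and 4.19 CPM (VI) and 3.64 CPM (FI) in trained livers and, like Nr1d1, was highest in FS and low in both trained livers. Distances among the members themselves, Npas2 left aside, were taken without the limit on range. Nr1d2 and Per1 were the closest pair at 0.17, Arntl and Cry1 lay 0.83 apart, and Arntl and Nr1d1 lay 4.62 apart. Nr1d2 and Per1 varied little, and profiles that are nearly flat lie close together whatever their shape. Their small distance is therefore not read as a shared pattern. Over all genes that passed the filter, 0.985% had a ratio of highest to lowest CPM as large as that of Nr1d1 (6.91), 1.26% as large as that of Arntl (5.95) and 1.62% as large as that of Cry1 (4.95). For Per1 (1.26), Cry2 (1.35) and Nr1d2 (1.37) the shares were 69.1%, 56% and 52.5%, so these members varied no more than most genes.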

How the data were processed

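Liver RNA of 4 pooled groups (VS, VI, FS and FI, 4 mice each) was sequenced on an Illumina platform. The authors deposited raw read counts per gene. The submitters' processing notes name fastp 0.23.2, STAR 2.5, HTSeq 0.6.1 and mm10. No source used here names the annotation or the strand setting, and 6 of the 10 members have the same start and end in GENCODE M21. The authors also deposited FPKM values, which equal count divided by gene length and total count (ratio to the recomputed value 1). The study tested the counts with edgeR.

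Counts were scaled by TMM. Ratios were computed for the 12180 genes that reached 1 CPM in any library, with a prior of 0.5 counts and exact conditional binomial 95% intervals. Because reads lacked molecular identifiers, they are not independent, and intervals and floors cover counting error alone. For the additive model, with 3 coefficients and 1 residual degree of freedom, the 11760 genes that reached 1 CPM in 2 or more libraries were tested by edgeR's robust quasi-likelihood method. P-values were adjusted by Benjamini-Hochberg, and the model was tested on simulated data. Differences of IT ratios have Wald intervals from Poisson counts. Software was edgeR 4.0.16, DESeq2 1.42.0 and limma 3.58.1 under R 4.3.3, and scipy 1.17.1 and matplotlib 3.10.9 under Python 3.11.15.

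Genes named are the 10 members, the highest and lowest gene of each list in each IT contrast, the 5 genes nearest to Arntl, to its mirror image and to Nr1d1, and genes overlapping a member; a few items are not reported here. Other genes of the lists (Ciart, Bhlhe41, Rora, Lpin1, Por, Tsku, Pnpla2 and Wee1) and the level of Sqle were singled out after their values were seen. Members, lists and markers were chosen with earlier results of these data known. Alternatives were DESeq2 size factors, total counts, a prior of 2 counts, FPKM plus 0.1 or 1, other filters, a 1.5-fold threshold, DESeq2, limma-voom, no robust estimation and each factor alone. Promoter windows are from RefSeq.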

Additional observations from a re-analysis of the deposited data

Results flagged for a closer look

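For 2 members the direction of the IT contrast was opposite in vehicle and fibril livers. Per2 had log2 ratios of −0.84 without fibrils (VI versus VS) and 0.11 with fibrils (FI versus FS), a difference of 0.96, and the FI versus FS interval includes 0. Cry2 had −0.39 and 0.3, a difference of 0.69. For 3 members the direction of the amyloidosis contrast was opposite in sedentary and trained livers. Clock had log2 ratios of 0.8 in FS versus VS and −0.06 in FI versus VI, a difference of −0.87, and the second interval includes 0. Cry2 had −0.26 and 0.43, a difference of 0.69, and Per1 had −0.04 (−0.13 to 0.05, which includes 0) and 0.23, a difference of 0.27. The Cry2 values of both kinds come from the same 4 libraries and are the same difference. With 1 library per group, none of these differences was tested.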

How the results depend on the processing

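No paired analysis was possible because each group has 1 library, and for the same reason no replicate could be left out. Leaving a library out of the additive model would leave no residual degree of freedom. No member beyond its threshold changed sign under the alternatives run. The counts beyond 2-fold stayed between 3 and 5 in VI versus VS, between 2 and 4 in FI versus FS, and at 0 in FI versus VI, and 6, 3 and 0 members passed 1.5-fold. The mean of the members in VI versus VS was −0.04, against a median of −0.39. With FPKM plus 1, which shrinks ratios of low genes, Arntl was at 1.13 without fibrils (VI versus VS) and 0.89 with fibrils (FI versus FS), and Clock was at 0.68 in the former. In FS versus VS the count of 2 members became 0 with FPKM plus 1 and 4 at a 1.5-fold threshold. In the additive model, the 3 members called with IT became 0 when the factor was fitted alone (edgeR, 4 members and 650 genes with an unadjusted p under 0.05) and 5 with no filter on low counts. The 1 member called with amyloidosis became 0 with the factor alone (1 member with an unadjusted p under 0.05), 2 with no filter and 0 with a filter at 5 CPM (edgeR, 2 members with an unadjusted p under 0.05). The calls over all genes moved in the same way, from 174 with IT to 0, 740 and 82, and from 585 with amyloidosis to 8, 1519 and 410. A filter at 5 CPM in 2 libraries dropped Arntl, so that 2 members were called with IT. The adjusted p ran from 6.8e-12 to 0.22 for Arntl with IT over the other 7 settings, and over 8 settings from 2.3e-18 to 0.9 for Cry1, from 1.4e-50 to 0.094 for Nr1d1, and from 2.3e-05 to 0.79 for Cry1 with amyloidosis (edgeR, DESeq2 and limma). Without a filter, Clock and Per3 with IT and Per2 with amyloidosis also passed, at adjusted p of 0.006, 0.0016 and 1e-04 in edgeR. The cause of these shifts was not tested. Leaving out the 13 skeletal muscle markers left the 4 counts beyond 2-fold at 4, 3, 2 and 0. This step touches only the scaling, in which the markers make up at most 74.8 CPM. It therefore says nothing about muscle RNA in the values of the members. Scaling without the VS library left FI versus FS at 3 and FI versus VI at 0. Both steps were chosen after seeing the data. Arntl and Npas2 are limited by depth, with between 33 and 162 counts and at most 8 counts per library.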

Other observations

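A list of 14 liver genes with known daily rhythms outside the loop all passed the filter. In VI versus VS 2 were more than 2-fold higher (1.54% of all genes) and 1 was lower (1.9%). The higher genes were Slc45a3 at 1.44 and Lpin1, a phosphatidate phosphatase gene, at 1.12 on the log2 scale. The lower gene was the fatty acid elongase gene Elovl3 at −1.63, from at most 28 counts. In FI versus FS 1 was higher (1.75% of all genes), Slc45a3 at 1.05, and 2 were lower (2.53%). The lower genes were Cyp7a1, the rate-limiting enzyme of bile acid synthesis, at −1.64 and Elovl3 at −1.14. The medians of the list were 0.15 and 0.43 on the log2 scale, beside 0.003 and 0.002 over all genes. Cyp7a1 measured 114 CPM (VS), 112 CPM (VI), 107 CPM (FS) and 34.1 CPM (FI), so that FI alone was low. Lpin1 stood at 111 CPM (VS), 241 CPM (VI), 429 CPM (FS) and 690 CPM (FI), higher with both IT and fibrils. Slc45a3 reached 28.8 CPM (VS), 78.4 CPM (VI), 31.0 CPM (FS) and 64.1 CPM (FI), high in both trained livers like Arntl.

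Por, the electron donor of liver cytochromes P450, measured 929 CPM (VS) and 729 CPM (FS) in sedentary livers and 1210 CPM (VI) and 1350 CPM (FI) in trained livers. Tsku and the triglyceride lipase gene Pnpla2 had log2 ratios of 0.9 and 0.78 in FI versus FS, against 0.23 and 0.6 in VI versus VS. Wee1, a cell cycle kinase gene with E-boxes, measured 18.5 CPM (VS), 10.7 CPM (VI), 8.81 CPM (FS) and 7.23 CPM (FI), and was highest in VS as Per2 was. None of these values has a test.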
